A study of Mus musculus with 2 samples.

Results

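Runs of c-Fos peaks were examined, that is, places where at least 3 peaks follow each other with centres no more than 10 kb apart. Peaks on chromosomes 1 to 19 and X were sorted by their centres, and neighbours within 10 kb were joined. Runs of 3 or more held 825 of the 10850 peaks on these chromosomes (7.6%) and numbered 241. Another 2140 peaks lay in pairs and 7885 had no neighbour within 10 kb. Position alone chose the members, so their closeness is given as a description. Their scores were not used in the choice.

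The list comes from 1 chromatin immunoprecipitation sequencing (ChIP-seq) library of mouse bone marrow mesenchymal stem cells, the marrow stromal cells that can become bone, cartilage or fat. Both libraries of the series, the c-Fos ChIP and its input (unprecipitated DNA), were made from cells with the genotype p53KO that expressed cFos, at fewer than 20 passages. The ChIP started from 50000000 fixed cells and 10 ug of the antibody sc-253. The sources used here do not say how c-Fos was introduced, whether the cells are 1 clone, or whether animals were pooled, and name no cells without c-Fos. A list of peaks holds no expression, so the labelled cell type could not be checked against its markers.

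c-Fos is the product of an immediate early gene. It carries a basic leucine zipper, the helix by which it pairs with a Jun protein to form AP-1, and it does not bind DNA stably without such a partner. AP-1 is known for its part in growth signalling, in the turnover of matrix and in the bone lineage, where excess c-Fos leads to tumours of bone and cartilage in mice. Binding sites of such factors can lie singly or close together, at the starts of genes as well as in enhancers, the elements that act on a gene from a distance.

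Only 1 ChIP library was used, so values carry no error between replicates, and no difference below has a test. Read counts were not used, so the depth is unknown. The score is the authors' deposited value for each peak, on a scale that the file does not state, and the lowest in the list is 50.01. It ranks peaks within the list and is no measure of how much c-Fos was bound. Which genes lie at the runs was not analysed here, and all positions are on mouse build mm9.

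Most runs were short. Of the 241 runs, 163 held 3 peaks and 64 held 4. The other 14 held 5 or more: 9 had 5 peaks, 3 had 6, 1 had 8 and 1 had 9. The number of runs follows the distance chosen, with 97 at 5 kb and 547 at 20 kb. Among the 5502 peaks scoring at least 100 it was 64. With peaks whose edges lay within 2 kb first joined into 1, which left 10327, it was 124. Both steps thin the list, which by itself lowers the number of close neighbours. The median run spanned 11.8 kb from its first to its last base, with quartiles of 8.85 and 14.8 kb and a range from 3.61 to 32.5 kb. Together the runs spanned 2.98 Mb, of which 0.829 Mb lay inside peaks. In the median run 28.6% of the span lay inside peaks (range 13.2% to 88.1%), so runs were mostly separate peaks with unlisted sequence between them.

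The 14 runs of 5 or more peaks were spread over 11 chromosomes. Chromosome 3 had 3 of them, chromosome 13 had 2, and the other chromosomes had 1 each.

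**Figure D1:**
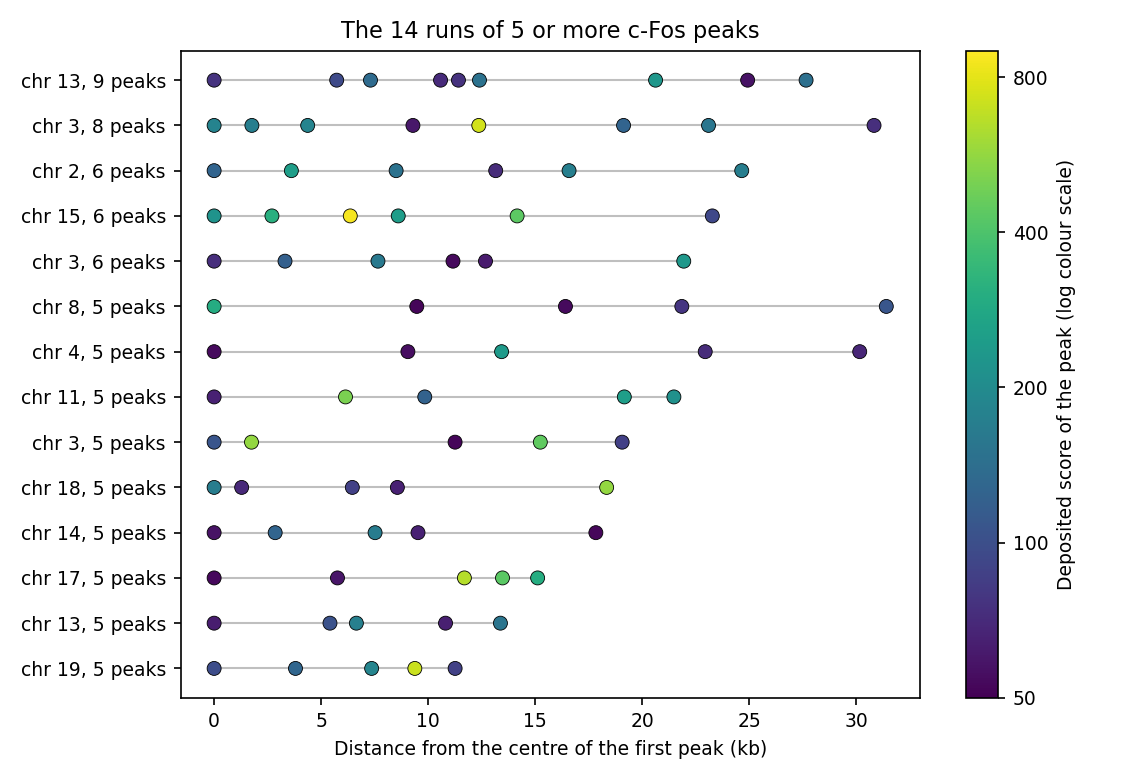
Layout of the 14 runs of 5 or more c-Fos peaks. Each row is a run, the horizontal axis is the distance in kb of each peak's centre from that of the run's first peak, and the colour of a point is the deposited score of the peak on a log colour scale. High and low scores stand side by side within rows. No run holds more than 1 peak with a score of at least 500, which 2.1% of all peaks reached.

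The run with the most peaks lay on chromosome 13 from 23517243 to 23545795. From its first peak to its last, the scores of its 9 peaks were 76.62, 96.08, 136.33, 70.89, 75.8, 148.53, 230.79, 57.71 and 143.23. Only 1 of the 9 peaks reached 200, and the run's median of 96.1 lay below the 101.2 of all peaks. The fourth to sixth peaks stood nearly edge to edge, with gaps of 19 and 94 bp, and the largest distance between neighbouring centres was 8.23 kb. The run was not alone: a run of 4 peaks began 62.9 kb further along, from 23608698 to 23622855, with scores of 745.52, 120.85, 55.99 and 231.21. The first of those 4 peaks was 3336 bp wide, against a median of 958 bp over all peaks in runs.

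The next in size lay on chromosome 3 from 88294461 to 88326373 and held 8 peaks. Its scores in order were 182.47, 171.06, 185.1, 60.25, 742.12, 125.85, 154.77 and 73.56. The fifth peak thus stood far above the other 7, none of which reached 200. Distances between neighbouring centres ran from 1.76 kb between the first peaks to 7.73 kb between the last.

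Runs of 6 peaks were found on chromosomes 2, 3 and 15, and they differed in score. On chromosome 15, from 76020119 to 76044449, the scores were 221.69, 309.29, 861.62, 247.04, 432.77 and 94.05. Its median of 278 was the second highest among the runs of 5 or more, and 5 of its 6 peaks scored above 200. On chromosome 2, from 44807957 to 44833829, the scores were 125.15, 251.23, 148.21, 71.26, 172.95 and 170.24. This run was the most even of the 3, with a highest score 3.53 times the lowest. On chromosome 3, from 108562211 to 108585146, the scores were 72.81, 120.19, 161.06, 53.68, 61.91 and 233.21, with a median of 96.5.

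Among the 9 runs of 5 peaks, the one on chromosome 17 from 23671921 to 23688070 had the highest median, 298. Its peaks scored 53.34, 59.0, 652.36, 428.01 and 297.89, so the low peaks stood at one end and the high ones at the other. The run on chromosome 11 from 119830912 to 119853309 followed with a median of 212 and scores of 65.15, 502.0, 122.7, 250.28 and 212.45. The run on chromosome 19 from 12076395 to 12088475 was the shortest of the 14 at 12.1 kb, with scores of 97.88, 128.66, 186.77, 715.55 and 87.11. Its highest peak was also its widest, at 2074 bp. On chromosome 3 from 90389212 to 90409259 the scores were 107.6, 561.02, 51.74, 444.1 and 86.14, with high and low peaks in turn. The run on chromosome 18 from 5395826 to 5415187 held 168.76, 69.56, 87.23, 65.46 and 560.94, with the highest peak at the far end, 9.78 kb beyond its neighbour.

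The other 4 runs of 5 held no peak of very high score. Their highest scores were 294.64 on chromosome 8 from 113317106 to 113349584, the longest run at 32.5 kb, and 239.35 on chromosome 4 from 149340275 to 149371206. The run on chromosome 13 from 22107398 to 22121536 reached 174.28, and the run on chromosome 14 from 76226685 to 76245278 reached 166.95. The medians of these 4 ran from 65.0 on chromosome 14 to 104 on chromosome 13. Large runs were therefore not all runs of high score: 7 of the 14 held a peak of at least 500, and 6 had a median under the 101 of all peaks.

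Peaks in runs had slightly higher scores than the list as a whole. Their median score was 110.5 (95% interval 104 to 117.5, from order statistics), against 101.2 over all 10850 peaks, 107.8 over peaks in pairs and 98.96 over single peaks. Of the 825 peaks, 462 (56%, Wilson 95% interval 52.6 to 59.4) scored at least 100, where 50.7% of all peaks did. A score of at least 200 was reached by 178 (21.6%, 18.9 to 24.5), against 18.6%, and a score of at least 500 by 19 (2.3%, 1.48 to 3.57), against 2.1%. The upper quartile was 184.5 in runs and 168 in the list, and the 90th percentile 301 and 276, so the middle and the upper part of the distribution were higher by similar proportions. The interval of the share at 500 or above includes that of the list. Peaks in pairs came close to those in runs, with 53.9% at 100 or above and 21% at 200 or above. These intervals cover counting error only and treat peaks of a run as independent.

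**Figure D2:**
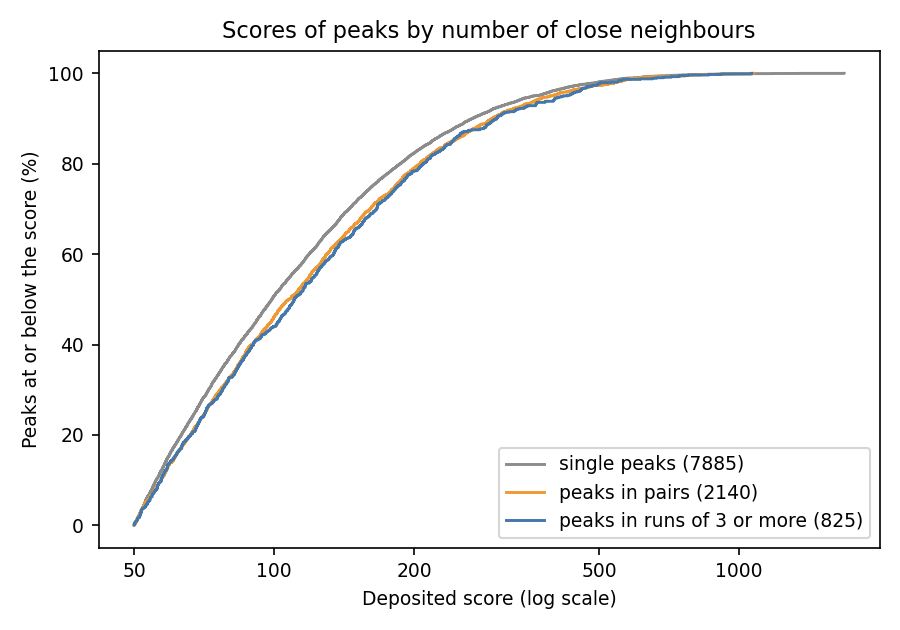
Cumulative share of peaks, in %, at or below each deposited score (log scale), for 7885 single peaks, 2140 peaks in pairs and 825 peaks in runs of 3 or more. The curves of pairs and runs lie close together and to the right of that of single peaks, with medians of 107.8, 110.5 and 98.96.

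Of the 12 peaks of at least 1000, 9 were single, 2 lay in pairs and 1 lay in a run. Of the 100 highest scores, 10 lay in runs, which held 7.6% of all peaks. With more peaks per run the median score was 108.5 in runs of 3, 112.2 in runs of 4 and 125.5 in runs of 5 or more, where the interval ran from 87.2 to 161. In runs of 5 or more, 7 of the 80 peaks (8.75%, 4.3 to 17) scored at least 500. The share was 1.64% in runs of 3, 1.56% in runs of 4, 2.66% in pairs and 2.1% over all peaks. The interval treats the 80 peaks, from 14 runs, as independent, and a trend with run size was not tested. Those 7 peaks came from 7 different runs.

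Peaks in runs were about as wide as others, with a median of 958 bp (944 to 972) against 949 bp. The widest 5% of the list (1312 bp or more) made up 55 of the 825 (6.67%, 5.16 to 8.58), against 4.93% of all peaks. Score and width rose together in runs much as in the list, with a Spearman's rho of 0.72 over the 825 peaks and 0.70 over all peaks, all from 1 library. The widest peak in a run was the first of 4 on chromosome 6 from 47717291 to 47738767, at 6360 bp with a score of 150. Its neighbours were 1148, 712 and 1001 bp wide and scored 137.71, 70.98 and 167.05.

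Within a run, peaks differed in score about as much as neighbouring peaks did elsewhere in the list. The highest score was at least 2 times the lowest in 182 of 241 runs (75.5%), at least 5 times in 45 (18.7%) and at least 10 times in 9 (3.73%). The median ratio was 2.53 in runs of 3 and 2.90 in runs of 4, against 1.8 in pairs, and such a ratio grows with the number of peaks compared. Peaks on both sides of 100 occurred together in 178 runs, while 42 runs held only peaks of at least 100 and 21 held none. A score of at least 100 was reached by 56% of run peaks and 50.7% of all peaks, so mixed runs are common at that bound. Of the 19 runs with a peak of at least 500, none held a second one. Such peaks made up 2.3% of run peaks and 2.1% of all peaks, so a second one would seldom be met.

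**Figure D3:**
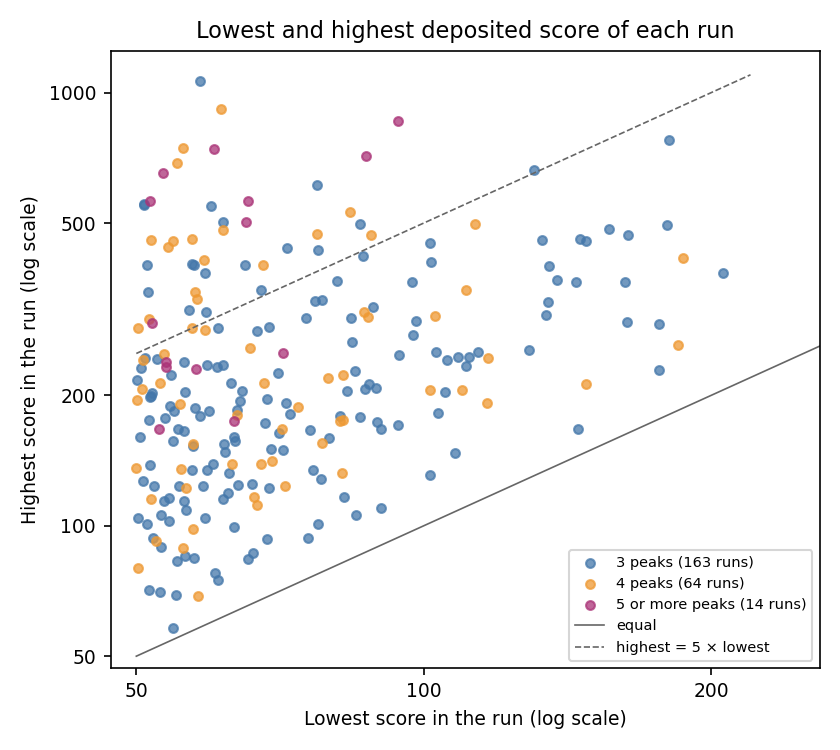
Lowest (horizontal) and highest (vertical) deposited score of each of the 241 runs, both on log scales, coloured by the number of peaks. The solid line marks equal scores and the dashed line a highest score 5 times the lowest, and 45 runs lie on or above the dashed line.

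The largest contrast was on chromosome 14 from 47991077 to 47996891, in a run of 3 that also held the highest score of any run. Its scores were 1066.28, 290.96 and 58.24 over 5.82 kb, with the first 18.3 times the last and a fall at each step. The smallest contrast was on chromosome 11 from 104483786 to 104489674, where the 3 peaks scored 58.11, 56.59 and 54.67. One run held steeply different peaks and the other peaks that were all near the lowest score of the list.

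The run of highest median lay on chromosome 1 from 92565076 to 92574964, with scores of 441.56, 458.23 and 132.98. On chromosome 8 from 35586547 to 35599078 the scores were 548.74, 365.55 and 59.82. On chromosome 6 from 91142526 to 91158261 they were 344.52, 484.41 and 156.24. In each of these 3 runs the last peak was the lowest by a wide margin. On chromosome 2 from 5534471 to 5540364 the middle peak stood out, with 337.77, 776.81 and 180.79. The run on chromosome 17 from 74432412 to 74439415, with 382.53, 205.66 and 303.17, was the only 1 of the 241 in which every peak scored at least 200. A score of at least 200 was reached by 21.6% of run peaks and 18.6% of all peaks.

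At the other end, the 5 lowest medians ran from 51.4 to 56.6. On chromosome 11 from 72657019 to 72668166 the scores were 50.61, 231.67 and 51.36, a high peak between peaks near the lower limit of the list. On chromosome 6 from 114838669 to 114845258 they were 126.92, 54.67 and 50.85. On chromosome 7 from 108900727 to 108911033 a run of 4 held 58.33, 54.1, 79.71 and 50.16. The remaining 2 were the even run on chromosome 11 given above and a run on chromosome 1 from 92793258 to 92806984, with 54.74, 51.66 and 138.42. Scores under 60 made up 14.2% of all run peaks, against 15.6% of the list.

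Distances between neighbours in a run varied widely within the limit of 10 kb. The 584 distances between neighbouring centres had a median of 4.24 kb (quartiles 2.31 and 6.88 kb), against 4.68 kb in pairs. Distances up to 2 kb made up 19.9% in runs and 17.9% in pairs. The commonest distance was between 1 and 2 kb (104 of 584), and only 12 lay under 1 kb, a range that the width of the peaks leaves little room for. In runs of 3, the longer of the distances was 1.90 times the shorter in the median run. No reference for that ratio was computed, so it cannot be read as a trait of runs. Between facing edges the median gap was 3.34 kb, and 67 gaps (11.5%) were under 500 bp.

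**Figure D4:**
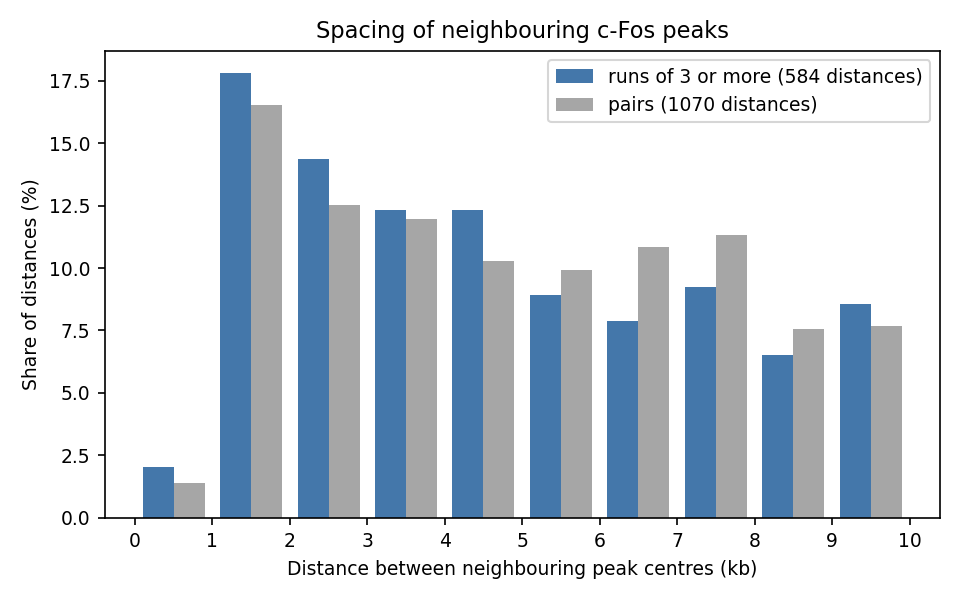
Share of distances between neighbouring peak centres, in %, in bins of 1 kb, for runs of 3 or more (584 distances) and pairs (1070). In both sets the bin from 1 to 2 kb is the fullest, with 104 distances in runs and 177 in pairs.

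The 5 most compact runs of 3 or 4 peaks spanned 3.61 to 3.84 kb. The shortest lay on chromosome 6 from 82964336 to 82967940, with scores of 135.25, 148.4 and 398.45. Another on chromosome 6, from 125373935 to 125377735, had scores of 145.82, 277.8 and 460.57 and a gap of 27 bp between its last peaks, and 88.1% of its span lay inside peaks. In both, the last peak was the highest, and the gaps between peaks were short beside the peaks themselves. The others were on chromosome 3 from 144764931 to 144768612 (60.84, 74.78 and 70.72), chromosome 17 from 34256095 to 34259868 (75.83, 134.63 and 57.2) and chromosome 15 from 64363656 to 64367496 (138.23, 63.33 and 160.49). Compact runs thus ranged from low to high score.

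Neighbours standing very close in a run had more alike scores than neighbours further apart. Up to 2.5 kb between centres, Spearman's rho of neighbouring scores was 0.31 over 161 neighbours from 128 runs. From 2.5 to 5 kb it was -0.01 over 183, and from 5 to 10 kb 0.01 over 240. The higher of the scores was 1.66 times the lower in the median of the closest neighbours, against 1.92 and 1.71 times at the longer distances. With neighbours up to 20 kb joined, rho up to 2.5 kb was 0.20, since former pairs then enter. In pairs rho was 0.04 up to 2.5 kb (255 pairs), so the likeness seen at short distance in runs was not seen in pairs. All of these points share 1 library and neighbouring points can share a peak, and the difference between runs and pairs was not tested.

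Median scores at the middle and at the ends of runs had overlapping intervals. In runs of 3, though, the middle peak scored lowest less often than either end. In the 163 runs of 3, the middle peak scored highest in 62 (38%, Wilson interval 30.9 to 45.7), the first in 55 and the last in 46. The middle peak scored lowest in 38 (23.3%, 17.5 to 30.4), against 62 for the first and 63 for the last. With neighbours up to 20 kb joined, this share was 30.8%, nearer to an even split over the 3 places. A difference between places was not tested. Median scores were 108.5, 125.1 and 104 from the first to the last place, and the intervals of these medians overlapped. In the 64 runs of 4, each place held the highest score in 14 or 18 runs and the lowest in 14 to 17.

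Chromosomes differed in how many of their peaks lay in runs. With a fixed joining distance this share also follows how densely peaks lie, and chromosome length was not taken into account. The share was highest on chromosome 5 (70 of 615 peaks in 21 runs, 11.4%, Wilson interval 9.11 to 14.1), chromosome 19 (43 of 381, 11.3%, 8.49 to 14.9) and chromosome 17 (55 of 535, 10.3%, 7.98 to 13.1). It was lowest among autosomes on chromosome 12 (7 of 282, 2.48%, 1.21 to 5.03), chromosome 16 (12 of 415, 2.89%, 1.66 to 4.99) and chromosome 9 (16 of 523, 3.06%, 1.89 to 4.91). Chromosome X held 65 peaks and 0 runs, which allows a share of up to 4.62%, taken as 3 counts of 65. The Wilson upper limit, as used for the other chromosomes, was 5.58%. Chromosome 9 had more peaks than chromosome 13 (523 against 499) but 5 runs against 11. A run adds at least 3 peaks at once, so these intervals are too narrow, and the chromosomes named were picked by their values.

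**Figure D5:**
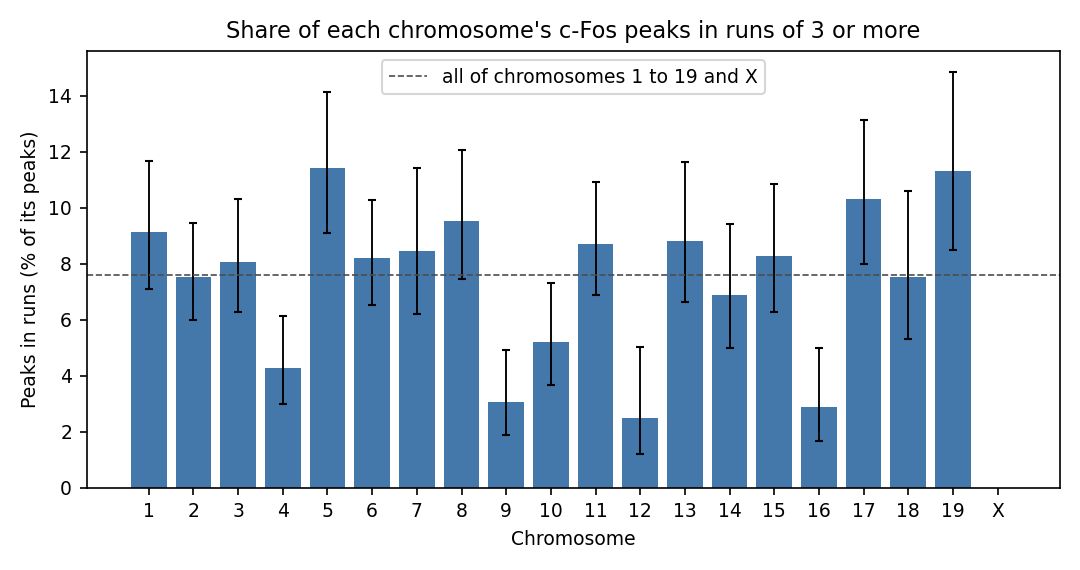
Share of each chromosome's c-Fos peaks that lay in runs of 3 or more, in %, with Wilson 95% intervals as error bars (none drawn at 0). The dashed line is the 7.6% of chromosomes 1 to 19 and X together. Chromosomes 5, 17 and 19 reach 10.3% to 11.4%, and chromosome X is at 0.

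Scores of run peaks differed between chromosomes as well. On chromosome 13 the 44 peaks in runs had a median of 155, where all its peaks had 96.1. On chromosome 15 the 46 peaks in runs had 149, against 101. On chromosome 4 the order was the opposite, with 70.4 over 28 peaks in runs against 95.9 over all its peaks. These medians rest on 11, 13 and 8 runs.

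Runs, much like pairs, had further peaks nearby more often than single peaks did. The same positions chose the runs, so this is a description only. Outside the run itself, the next peak was 30.7 kb away in the median, edge to edge, against 36.1 kb for pairs and 45.6 kb for single peaks. A further peak lay within 100 kb of 84.2% of runs, 82% of pairs and 74.5% of single peaks. Another run lay within 100 kb of 22 runs and within 1 Mb of 86. Those 86 formed 34 groups, 11 of them with 3 or more runs.

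Among the groups of 3 or more runs, the one with the most runs for its length lay on chromosome 1 from 92565076 to 92806984, with 4 runs and 13 peaks in 242 kb, or 16.5 runs per Mb. It held the run of highest median of all 241 (441.56) and 1 of the 5 lowest (54.74). Its other runs, from 92625680 to 92637392 and from 92731037 to 92745888, scored 347.32, 59.73 and 51.49, and 457.22, 133.46, 51.81 and 95.29. In 2 of the 4 runs the first peak was thus far above those that followed.

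On chromosome 13 from 23390194 to 23622855, 3 runs held 16 peaks in 233 kb, the run of 9 peaks among them. The first of the 3 ended at 23399990 and scored 115.82, 165.29 and 56.12. On chromosome 8 from 124412967 to 124883813, 3 runs of 4 peaks had medians of 275, 292 and 189, all above the upper quartile of 155.5 for runs. The middle one, from 124697655 to 124712038, scored 415.71, 328.88, 254.21 and 187.13. Groups of 5 runs lay on chromosome 6 from 89357918 to 91158261, with medians from 117 to 345, and on chromosome 19 from 4509862 to 5850896, with medians from 71.5 to 153.5. On chromosome 6, 4 of the 5 medians lay above the highest on chromosome 19.

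The limit of 10 kb cuts through a continuous range of distances. The run nearest to it from within was on chromosome 18 from 82658963 to 82673795, where the last of 4 peaks lay 9990.5 bp from the peak before it (scores 119.98 and 116.64). The next was on chromosome 8 from 46063812 to 46082574 (9946.5 bp, scores 57.85 and 70.43). At 9941.5 bp followed a run on chromosome 15 from 103188795 to 103209367 (scores 119.32 and 214.11) and another on chromosome 13 from 63341921 to 63355824 (scores 552.42 and 166.61). Just outside were a pair on chromosome 18 from 63560140 to 63567391 with a further peak 10085.5 bp away (scores 212.45 and 83.7) and a pair on chromosome 17 from 46040431 to 46043196 with a peak 10103 bp before it (78.97 and 125.81).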

How the data were processed

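The deposited list of c-Fos ChIP peaks was the 1 file used. It gives a sequence name, start, end, name and score for each of 10870 peaks. CASAVA 1.8.2, MACS 1.4.1 and build mm9 are listed, with no role stated, per the submitters' processing notes, and peak names carry the MACS prefix. Not given in the sources used here are the peak threshold, the aligner, any filters on reads and whether the input entered peak calling. The score was deposited by the authors with no scale stated. Samples were grouped by antibody label.

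Starts are printed 1-based. The 20 peaks on other sequence were left out. Neighbouring centres up to 10000 bp apart were joined, and runs needed 3 peaks. Intervals of medians come from order statistics and those of shares are Wilson intervals (95%), for counting error only. A limit for a count of 0 is 3 counts of the total. The run finder was tested on simulated positions. Work was done with pandas 2.3.3 and numpy 2.4.6 under Python 3.11.15, intervals with scipy 1.17.1 and figures with matplotlib 3.10.9.

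The members, the distance and the gene lists were chosen with earlier results of these data known. Named were all runs of 5 or more peaks, the 5 of highest and 5 of lowest median, the 5 shortest of 3 or 4 peaks, the run of highest score and of largest ratio, and those nearest the limit. Groups of runs, the widest peak and the chromosomes named were chosen after their values were seen. The rank correlation of neighbouring scores and its distance bounds were not part of the plan. The planned lookups of genes, gene starts and the AP-1 motif need mm9 sequence or annotation and were not run, so no gene or sequence is given.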

Additional observations from a re-analysis of the deposited data

How the results depend on the processing

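Of 45 recomputed values, 29 stayed within 1.5 times a count or within the interval of the main value, and 16 moved. Only the rank correlation of neighbouring scores could change sign, and it did not. Counts on chromosomes 1 to 19 alone were the same by construction, since chromosome X held 0 runs. The number of runs follows the distance by construction: 97 runs with 316 peaks at 5 kb and 547 with 1941 at 20 kb, against 241 with 825. A score of at least 100 left 5502 peaks in the list, and 64 runs with 211 peaks. Joining peaks within 2 kb first left 10327 peaks in the list, and 124 runs with 398. Without the widest 5%, which removes high scores, run peaks had a median score of 103.7, with 52.2% at or above 100 and 18.7% at or above 200. The list filtered in the same way had 97.6, 48.4% and 16.4%. Runs of 5 or more numbered 5 at 5 kb, 70 at 20 kb, 3 at a score of at least 100 and 5 after joining, against 14. The share of runs of 3 with the lowest score in the middle was 30.8% at 20 kb, against 23.3%. The rank correlation of close neighbours was not part of the plan, and its alternatives were chosen after seeing the data. This correlation lay between 0.20 (20 kb) and 0.34 (5 kb). It could not be computed after joining peaks within 2 kb. Alternatives that need mm9 sequence or annotation were not run. No paired analysis was possible because there is a single ChIP library and no result compares samples.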
